A study of Mus musculus with 32 samples.

Results

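The 7 genes described here carry the insulin signal through fat cells: Insr, Irs2, Irs3, Akt1, Akt2, Foxo1 and Pfkfb3. They were taken by symbol from the read count tables of male and female inguinal fat, the subcutaneous depot of the groin, and from the authors' deposited table of the perigonadal, visceral depot of males. Each was listed in at least 1 of these 3 tables, which together list 2480 genes. A gene is called listed where the authors' own adjusted p-value for the comparison was under 0.05, and the tables hold no other genes. Male inguinal fat listed 5 of the 7 (Irs2, Irs3, Akt1, Akt2 and Pfkfb3) among 1074 genes, which was 8.56% of the genes the authors tested there. Female inguinal fat listed 3 (Insr, Akt1 and Foxo1) among 790 genes, 5.83% of those tested. Perigonadal fat listed 3 (Irs3, Akt1 and Akt2) among 1488 genes, 11.1% of those tested. The 7 genes were chosen with earlier results of these data known, so these counts cannot be read as an excess over those shares. Akt1 was the only member listed in all 3 tables. The liver table of the same series listed none of the 7, but it lists only 37 genes in all. A member that is absent from a table is one whose change did not pass the authors' threshold or that was not tested, and no value is given for it.

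The mice were C57BL/6 animals whose Bcl6 alleles were flanked by loxP sites in every group. WT mice were Bcl6 fl/fl without Cre, and AKO mice were Bcl6 fl/fl;Adipoq-Cre, in which the adiponectin promoter drives the recombinase in adipocytes. Bcl6 encodes a transcriptional repressor, and the series set out to find the adipocyte genes it controls, with subcutaneous fat mass and insulin sensitivity named in its title. Each tissue and sex had 4 WT and 4 AKO libraries of poly(A) RNA, 32 in all, and their ages are not given in the labels. Since Adipoq-Cre occurred with floxed Bcl6 alone, deletion and Cre cannot be told apart. By animal number, the male inguinal and perigonadal samples came from the same 8 mice and the females from another series of numbers, so that sex and set of mice cannot be told apart.

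Insulin acts on fat by binding its receptor, a tyrosine kinase encoded by Insr, which phosphorylates docking proteins of the IRS family. These recruit phosphoinositide 3-kinase, whose lipid product brings the kinases AKT1 and AKT2 to the membrane for activation. In adipocytes AKT2 is the isoform best known for moving the glucose transporter GLUT4 to the cell surface, and AKT1 is better known for growth. Active AKT phosphorylates FOXO1, a transcription factor that then leaves the nucleus, and FOXO1 in turn can raise transcription of Irs2 and Insr. PFKFB3 makes the sugar bisphosphate that switches on phosphofructokinase, the committed step of glycolysis. IRS3 is a short docking protein of rodent fat, and the human gene is a pseudogene.

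In mm10 coordinates with the GENCODE M21 annotation, Insr spans chr8:3122061-3279617 and Irs2 spans chr8:10984681-11008458, both on the minus strand. Irs3 lies at chr5:137643031-137645714 (minus), Akt1 at chr12:112653821-112674884 (minus), Akt2 at chr7:27591552-27640826 (plus), Foxo1 at chr3:52268336-52353221 (plus) and Pfkfb3 at chr2:11471433-11554077 (minus). All are protein-coding, and the counts cover the whole gene, not single exons. An exon of 9530052E02Rik overlaps Irs2 and an exon of Gm20402 overlaps Foxo1, each on the opposite strand. Whether reads were counted by strand is not known here, and reads of those pairs may have been shared.

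RefSeq promoter windows (GRCm38.p6, 250 bases before to 50 after each start) were held for 6 of the 7 genes, 11 windows in all. Each was searched on both strands for the FOXO site GTAAACA, the insulin response element core TGTTTTG, the palindrome TTCNNNGAA bound by STAT factors and BCL6, its special case TTCCTAGAA, and the E-box CACGTG that SREBP and other helix-loop-helix factors can bind. The 3 windows below are shown because they belong to the gene that rose in every table (Akt1), the gene that moved against it (Akt2) and the gene with the greatest fold (Irs2), and because each holds a match. Capitals mark the matches, read 5′ to 3′ on the gene's own strand.
Akt1, chr12:112674835-112675134, minus strand: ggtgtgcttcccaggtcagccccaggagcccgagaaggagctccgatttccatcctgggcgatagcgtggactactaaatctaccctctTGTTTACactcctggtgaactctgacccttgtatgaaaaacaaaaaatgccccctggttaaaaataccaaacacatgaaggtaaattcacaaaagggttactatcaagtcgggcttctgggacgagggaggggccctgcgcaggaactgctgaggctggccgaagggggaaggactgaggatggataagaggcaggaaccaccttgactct
Akt2, chr7:27591302-27591601, plus strand: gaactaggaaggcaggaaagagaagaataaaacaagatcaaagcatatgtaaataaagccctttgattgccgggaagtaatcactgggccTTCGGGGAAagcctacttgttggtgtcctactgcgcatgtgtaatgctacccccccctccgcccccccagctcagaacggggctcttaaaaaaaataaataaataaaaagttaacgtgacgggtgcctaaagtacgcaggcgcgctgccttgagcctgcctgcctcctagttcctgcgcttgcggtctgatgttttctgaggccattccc
Irs2, chr8:11008880-11009179, minus strand: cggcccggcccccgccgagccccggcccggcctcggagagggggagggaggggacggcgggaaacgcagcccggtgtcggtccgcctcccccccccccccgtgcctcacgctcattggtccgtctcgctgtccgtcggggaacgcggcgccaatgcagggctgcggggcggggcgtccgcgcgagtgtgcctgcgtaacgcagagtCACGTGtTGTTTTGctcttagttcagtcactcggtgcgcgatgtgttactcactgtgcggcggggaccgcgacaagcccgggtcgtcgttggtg

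The upstream Akt1 window held a FOXO site in reverse orientation, TGTTTAC, centred at -157.5 relative to the start. The Akt2 window at the gene's 5′ end held TTCGGGGAA, which has the form of the STAT and BCL6 palindrome, centred at -155.5. The second Akt1 window and the other 3 Akt2 windows held no match. In the Irs2 window an E-box and an insulin response element core stood with 1 base between them. That window lies wholly upstream of the GENCODE M21 span of Irs2 given above, so the 2 annotations place the Irs2 start differently. Of all 32851 RefSeq promoter windows, 3.65% held the FOXO site, 6.28% the insulin response element core, 8.30% the palindrome and 7.15% the E-box. Of the 11 member windows, 1 held the FOXO site, 1 the insulin response element core, 1 the palindrome and 2 the E-box, in Irs2 and Pfkfb3. The narrower TTCCTAGAA occurred in 0.411% of windows and in 0 of the 11 member windows. A match describes letters only, and no binding was measured here.

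In male inguinal fat, AKO libraries held on average more RNA of the docking proteins Irs2 and Irs3 and of the kinase Akt1, and less of the kinase Akt2. Values are normalized counts, that is read counts divided by the authors' size factor for the library, and tests are edgeR's quasi-likelihood test with p-values adjusted by Benjamini-Hochberg over the number of genes the authors tested. That test called 5.19% of those genes in males, 651 in all, and 4 of the 5 listed members. Because the table holds only genes the authors had already called on these libraries, these tests describe the size and spread of a difference and are no independent check of it. Genes that are not listed have no p-value here and were ranked behind all listed ones. For given raw p-values, the adjusted p-values are therefore upper limits in both sexes, and the numbers called are lower limits. The spread was also estimated from listed genes alone, which had passed a test on these libraries. That can make the raw p-values too small, so the limits hold for the adjustment step only. Groups did not overlap in 90.8% of the genes of the male table, and in 3 of its 5 members. These are bulk samples, in which fewer cells of a type and less RNA per cell cannot be told apart.

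Akt1 gave the tightest separation. Its normalized counts were 1866, 2117, 1960 and 1839 in WT replicates 1 to 4 and 2890, 2952, 2832 and 2879 in the AKO replicates. The highest WT library stood well below the lowest AKO library, and the 4 AKO libraries were close to each other. The mean went from 1945 ± 125 (SD, n = 4) to 2888 ± 49.1 (SD, n = 4), a 1.48-fold rise (log2 fold 0.57 ± 0.06 SE, edgeR adjusted p = 0.000462). Akt1 was called in each of the 8 fits that left out 1 library.

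Akt2 went the other way. It had 5796, 4775, 5367 and 4873 normalized counts in WT and 3978, 3801, 3898 and 4506 in AKO, so that the groups were apart but AKO replicate 4 came near the lowest WT library. The means were 5203 ± 473 (SD, n = 4) and 4046 ± 315 (SD, n = 4), a fall of 1.28-fold (log2 fold -0.36 ± 0.08 SE, edgeR adjusted p = 0.0352). Leaving out WT replicate 1, 3 or 4 or AKO replicate 1, 2 or 3 ended the call, with adjusted p from 0.0548 to 0.117.

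Since Akt1 and Akt2 were counted in the same libraries, their ratio does not depend on how libraries were scaled. Akt1 reads per Akt2 read came to 0.322, 0.443, 0.365 and 0.377 in WT and to 0.726, 0.776, 0.727 and 0.639 in AKO. No AKO library came near the WT range. The log2 ratio differed by 0.93, a 1.91-fold change of the ratio, and by 0.86 to 1.01 when any 1 library was left out. Per kilobase of annotated exon the ratio was 0.656 ± 0.0873 (SD, n = 4) in WT and 1.25 ± 0.0996 (SD, n = 4) in AKO. Akt2 was thus the more abundant isoform per length in every WT library, at ratios of 0.560 to 0.771, and Akt1 in every AKO library, at 1.11 to 1.35. With the length of the longest coding transcript in place of all exons the ratios were 0.637 and 1.21. Both genes were chosen among those the authors called in opposite directions, so the ratio is given as a description with no test.

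**Figure D1:**
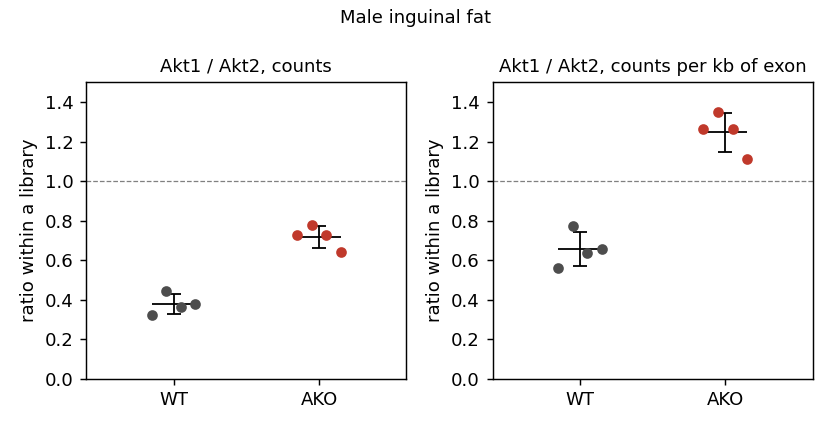
Ratio of Akt1 to Akt2 within each library of male inguinal fat. Points are the 4 WT and 4 AKO libraries. Per kilobase of annotated exon, the ratio lay below 1 in WT (0.560 to 0.771) and above 1 in AKO (1.11 to 1.35).

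The docking proteins differed in level and in spread. Irs2, the substrate that FOXO1 can induce, had 126, 79.6, 90.5 and 56.4 normalized counts in WT and 165, 190, 116 and 203 in AKO. The groups overlapped, because AKO replicate 3 lay below WT replicate 1. The means were 88.2 ± 29.0 (SD, n = 4) and 168 ± 38.5 (SD, n = 4), a ratio of 1.91. The edgeR fit gave a 2.02-fold rise (log2 fold 1.02 ± 0.23 SE, edgeR adjusted p = 0.0285), and the authors' deposited table gives 1.78-fold. These estimates rest on 47 to 331 raw reads per library. The edgeR fold of Irs2 was the greatest of the 5 members and the least precise: the 95% interval of the log2 fold ran from 0.52 to 1.52. The call held only without WT replicate 1 or without AKO replicate 3, the libraries that overlapped. Without WT replicate 2, 3 or 4 or AKO replicate 1, 2 or 4 the adjusted p was 0.0551 to 0.0899.

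Irs3 had 462, 476, 552 and 484 normalized counts in WT and 563, 612, 667 and 674 in AKO. The highest WT library stood just under the lowest AKO library. The means were 493 ± 40.1 (SD, n = 4) and 629 ± 52.0 (SD, n = 4), a 1.27-fold rise (log2 fold 0.34 ± 0.08 SE, edgeR adjusted p = 0.0382). This call was kept only without WT replicate 3 or AKO replicate 1, and the adjusted p was 0.0873 to 0.111 without WT replicate 1, 2 or 4 or AKO replicate 2, 3 or 4.

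Pfkfb3, the glycolytic switch, had 11822, 9016, 11388 and 7991 normalized counts in WT and 8282, 6770, 6014 and 6653 in AKO. AKO replicate 1 lay above WT replicate 4, and the WT libraries were widely spread. The means were 10054 ± 1847 (SD, n = 4) and 6930 ± 961 (SD, n = 4). The authors' deposited table gives a log2 fold of -0.50 ± 0.15 SE with an adjusted p of 0.0114. The edgeR fit gave -0.54 ± 0.14 SE with an adjusted p of 0.0554, which does not pass but is close to the threshold. It passed without WT replicate 4 (0.0347) or without AKO replicate 1 (0.0382), the libraries that overlapped.

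**Figure D2:**
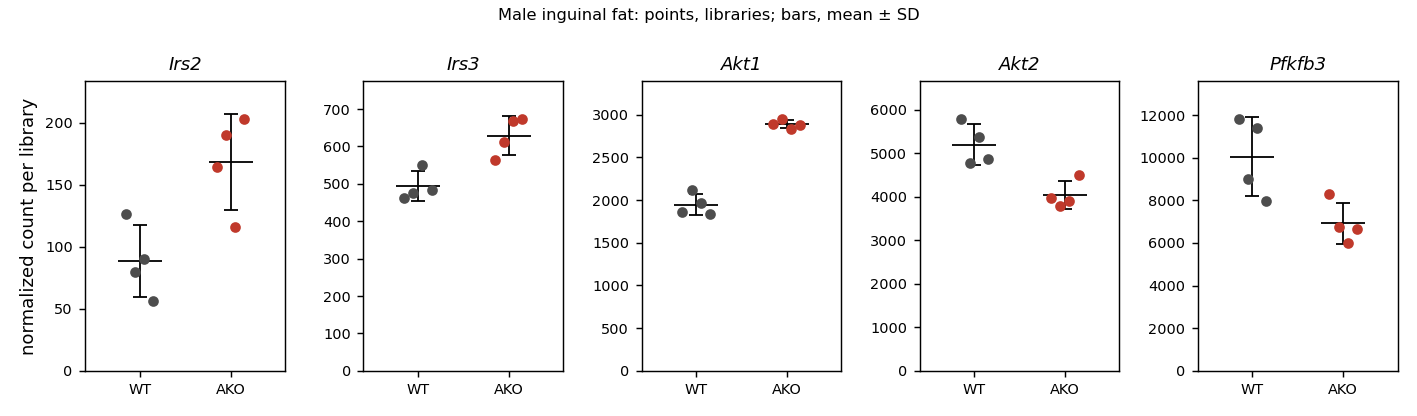
Normalized counts of the 5 listed members in male inguinal fat, 1 panel per gene with its own linear axis. Points are libraries, and bars are group means ± SD (n = 4). Irs2, Irs3 and Akt1 were higher in AKO on average and Akt2 was lower. Irs2 and Pfkfb3 overlapped between the groups, and Pfkfb3 did not pass the edgeR test.

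In these male libraries 2 of 10 adipocyte markers were listed, Cebpa and Plin1, both lower in AKO, and their summed level was 25294 to 32192 normalized counts in WT and 20911 to 24106 in AKO. The macrophage marker Cd14 was listed as lower, at 349 to 441 in WT and 255 to 338 in AKO, as 1 of 10. Of 9 endothelial and mural markers Pecam1 was listed as higher and Cspg4 as lower, with summed levels of 4868 to 5796 and 4814 to 5076. The muscle marker Acta1, 1 of 7, was listed as lower, at 64.4 to 102 in WT and 22.2 to 55.5 in AKO. No listed marker was at 0 in any library, and no progenitor, lymphocyte or epithelial marker was listed. The part of these markers in the results on the 5 members was not tested.

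In female inguinal fat the receptor Insr and the kinase Akt1 rose in AKO, and Foxo1 was listed by the authors but did not pass the edgeR test. That test called 2.41% of the genes tested in females, 326 in all, and 2 of the 3 listed members. Groups did not overlap in 89.1% of the genes of the female table, nor in any of the 3 members.

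Insr had 3301, 3171, 3228 and 3343 normalized counts in WT and 4050, 3887, 4046 and 4384 in AKO. The WT libraries were close together and every AKO library was above them. The means were 3261 ± 76.8 (SD, n = 4) and 4092 ± 209 (SD, n = 4), a 1.25-fold rise (log2 fold 0.33 ± 0.07 SE, edgeR adjusted p = 0.0301). The call was kept only without AKO replicate 3 or 4, and the adjusted p was 0.0539 to 0.116 without AKO replicate 1 or 2 or any WT replicate (1 to 4).

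Akt1 had 3640, 4127, 3754 and 3822 normalized counts in WT and 5175, 5053, 5994 and 5028 in AKO. All AKO libraries were above all WT libraries, and AKO replicate 3 stood apart from the other AKO libraries. The means were 3836 ± 208 (SD, n = 4) and 5313 ± 459 (SD, n = 4), a 1.38-fold rise (log2 fold 0.47 ± 0.08 SE, edgeR adjusted p = 0.0139). The adjusted p was 0.0532 without WT replicate 1 and 0.0514 without WT replicate 3, which ended the call.

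Foxo1 had 2273, 1924, 1878 and 2125 normalized counts in WT and 2285, 2830, 2401 and 2580 in AKO. The groups did not overlap, but the highest WT and the lowest AKO library were nearly equal. The means were 2050 ± 184 (SD, n = 4) and 2524 ± 237 (SD, n = 4), a log2 fold of 0.30 ± 0.09 SE with an edgeR adjusted p of 0.152. The authors' deposited table gives 0.29 ± 0.10 SE with an adjusted p of 0.0484, close to the limit of being listed.

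**Figure D3:**
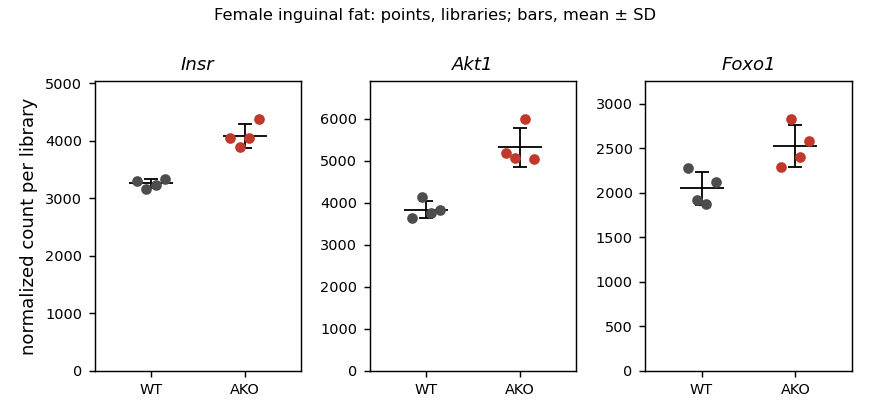
Normalized counts of the 3 listed members in female inguinal fat, 1 panel per gene with its own linear axis. Points are libraries, and bars are group means ± SD (n = 4). Insr and Akt1 were higher in every AKO library, and Foxo1 was higher by little and did not pass the edgeR test.

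The female differences moved with library scaling more than the male ones did. TMM and the table total were computed here from the listed genes alone, all of which the authors had called as changed. Both scalings presume that most genes are unchanged, so on such a table they cannot decide which scaling is right. Scaling to the total of the table lowered the median log2 fold of all listed female genes by 0.21, and moved the share of edgeR calls that were higher in AKO from 64.7% to 22%. Scaling by TMM lowered that median by 0.09 and gave 36.2%. The log2 folds relative to the table total were 0.25 for Akt1, 0.12 for Insr and 0.09 for Foxo1, none of them called, and with TMM Akt1 passed (0.38, edgeR adjusted p = 0.0409) while Insr did not (0.24, edgeR adjusted p = 0.107). No member changed direction under any scaling. In males the share of calls that were higher was 56.2% with the authors' size factors, 47.8% with TMM and 60.1% with the table total.

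In the female libraries 1 of 10 adipocyte markers was listed, Adipoq, with 45320 to 50391 normalized counts in WT and 61301 to 74578 in AKO. Adipoq is also the gene whose promoter drives Cre in the AKO mice alone, and whether the Cre construct affected its count was not tested. Macrophage markers were listed as higher in 4 of 10 (Cd163, Csf1r, Lyz2 and Mmp12), with summed levels of 13868 to 17299 in WT and 17373 to 23965 in AKO. Epithelial and mammary markers were listed as lower in 5 of 9, with summed levels of 15907 to 20282 and 7247 to 11282, and the mural marker Cspg4, 1 of 9, ran from 2462 to 2937 and from 1198 to 1685. No listed marker was at 0, and their part in the results on Insr, Akt1 and Foxo1 was not tested. Relative depth, as the authors' size factor, was 0.786 ± 0.285 (SD, n = 4) in WT and 1.37 ± 0.233 (SD, n = 4) in AKO females, and 0.838 ± 0.332 and 1.36 ± 0.423 in males. AKO libraries were thus the deeper on average in both sexes. Among the 3 fat tables Bcl6 itself was listed for female inguinal fat only, with 988 to 1442 normalized counts in WT and 2295 to 2800 in AKO, counted over the whole gene, so reads of the deleted part could not be told from the rest.

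In perigonadal fat no counts were used, and the authors' deposited table alone gives the values. It lists Akt1 1.61-fold higher in AKO (log2 fold 0.68 ± 0.06 SE, adjusted p = 2.66e-24, DESeq2 by the authors) at a mean of 4933 normalized counts. In the authors' deposited table Irs3 was 1.33-fold higher (0.41 ± 0.12 SE, adjusted p = 0.00780, mean 1383). The authors' deposited table has Akt2 1.34-fold lower (-0.42 ± 0.12 SE, adjusted p = 0.00680, mean 7736). These 3 genes had the same signs in the inguinal fat of the same mice, where the authors' deposited table gives 0.56 ± 0.06 SE for Akt1, 0.33 ± 0.09 SE for Irs3 and -0.35 ± 0.09 SE for Akt2. The 2 depots share their animals, so the second is no independent repeat of the first. Irs2 and Pfkfb3 were listed for male inguinal fat only, and whether their change differed between depots was not tested.

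**Figure D4:**
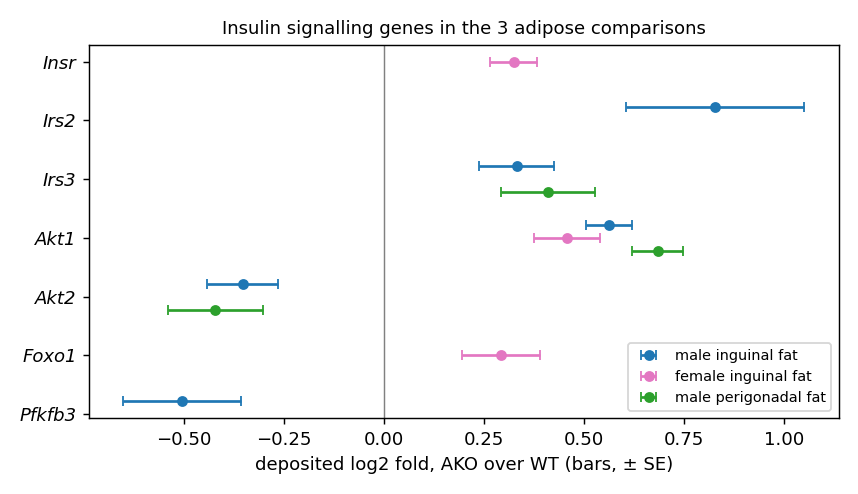
Log2 fold of AKO over WT in the authors' deposited tables for each member and each of the 3 adipose comparisons in which it is listed, with bars of ± SE. Akt1 is higher in all 3, Akt2 is lower in both tables that list it, and no point is drawn where a gene is not listed.

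Akt1 could be compared between the sexes directly. The log2 fold in males was greater than in females by 0.10 ± 0.11 SE (95% interval -0.14 to 0.34), with an edgeR adjusted p of 0.773 over the 290 genes held for both sexes, of which 1.72% were called for a difference between the sexes. Those 290 genes are the ones the authors called in both sexes, Akt1 among them, so genes changed in 1 sex only were left out beforehand. Neither the 1.72% nor the adjusted p is thus set against all genes. The interval leaves room for a male excess of 0.34 on the log2 scale as well as for a female excess. No other member had counts for both sexes, so a difference between sexes could be tested for Akt1 only.

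Members were also placed among all listed genes by size of change. The absolute log2 fold of Irs2 in the authors' deposited table was greater than that of 85.0% of the listed male genes, and that of Akt1 was greater than 67.8% in male inguinal, 38.7% in female inguinal and 74.5% in perigonadal fat. The shares in the authors' deposited tables were 59.0% for Pfkfb3 in male inguinal fat, 33.0% and 38.9% for Irs3 and 37.5% and 41.5% for Akt2 in male inguinal and perigonadal fat. For Insr and Foxo1 in females the shares were 14.4% and 8.99% in the authors' deposited table. The median absolute log2 fold of listed genes was 0.43 in male inguinal, 0.53 in female inguinal and 0.47 in perigonadal fat, by the authors' deposited tables.

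Levels between genes were compared per kilobase of annotated exon. In male WT fat the mean level was 1330 ± 244 (SD, n = 4) normalized counts per kilobase for Pfkfb3, 730 ± 66.3 for Akt2, 475 ± 30.6 for Akt1, 211 ± 17.1 for Irs3 and 13.9 ± 4.59 for Irs2. In AKO the levels were 917 ± 127 for Pfkfb3, 705 ± 12.0 for Akt1, 567 ± 44.2 for Akt2, 269 ± 22.2 for Irs3 and 26.6 ± 6.09 for Irs2. The only change in this order was that Akt1 passed Akt2, and no neighbours in it overlapped between libraries in either group. The short substrate Irs3 was thus the more abundant docking protein of the pair at the RNA level in both groups. In females the level went from 936 ± 50.7 to 1296 ± 112 for Akt1, from 237 ± 5.58 to 298 ± 15.2 for Insr and from 237 ± 21.2 to 291 ± 27.4 for Foxo1. The order of Insr and Foxo1 was not settled on this scale, and per kilobase of longest coding transcript Insr was the higher in WT, at 349 against 237. The male and female tables were normalized separately, so levels are not compared between the sexes.

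The rest of the pathway was described from 6 lists of 124 genes, which include the 7 members. In male inguinal fat 15 of the 124 were listed, 8 higher and 7 lower by the authors' deposited table, and the edgeR test called 7 higher and 6 lower. Without the members the authors' deposited list held 10 of 117, which was 8.55% beside 8.56% of all genes tested. In female inguinal fat 12 were listed, 8 higher and 4 lower, with 5 and 1 called by edgeR, and without the members 9 of 117, or 7.69% beside 5.83%, with the floxed gene Bcl6 among the 9. In perigonadal fat 24 were listed, 14 higher and 10 lower, and without the members 21 of 117, or 17.9% beside 11.1%. How many of the 124 the authors tested is not known, so these shares are lower limits. The median log2 fold of the listed pathway genes, members included, was 0.23, 0.35 and 0.30 in male inguinal, female inguinal and perigonadal fat, beside 0.23, 0.30 and 0.21 for all listed genes, by the authors' deposited tables.

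At the head of the pathway, Irs1 was the only gene listed beside the members among 14 receptors and docking proteins. Irs1, the other main substrate of the receptor in fat, was listed for perigonadal fat alone, at a log2 fold of 0.48 ± 0.17 SE (adjusted p = 0.0376, DESeq2 by the authors) in the authors' deposited table. Of 22 kinases of the PI3K, AKT and mTOR group, Akt1 and Akt2 were the only listed ones in male inguinal fat and Akt1 the only listed one in female. The authors' deposited table for perigonadal fat adds Pik3cg (0.35) and Pik3cd (0.35), catalytic subunits best known from immune cells, as higher, and Mapkap1 (-0.30), a subunit of mTOR complex 2, as lower. The leukocyte marker Ptprc and 3 of 10 macrophage markers (Cd68, Csf1r and Mrc1) were also listed as higher in perigonadal fat, and their part in those values was not tested. There 2 of 10 adipocyte markers (Cidec and Lipe), 2 of 9 progenitor markers (Cd55 and Dpp4) and 2 of 9 epithelial markers (Krt19 and Krt7) were listed as lower, and their part in the perigonadal values was not tested either.

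Brakes on the pathway moved in both directions. In male inguinal fat the adaptor Grb10, which binds and inhibits the insulin receptor, rose from 1072 ± 98.7 to 1550 ± 77.5 normalized counts (SD, n = 4 each; log2 fold 0.53 ± 0.07 SE, edgeR adjusted p = 0.00227), and the phosphoinositide phosphatase Inpp5k rose by 0.30 ± 0.06 SE (edgeR adjusted p = 0.0115). Eif4ebp1, a translation inhibitor that mTOR complex 1 switches off, fell from 3938 ± 323 to 2897 ± 97.9 (-0.44 ± 0.07 SE, edgeR adjusted p = 0.00545). The authors' deposited table for perigonadal fat has the same signs for Grb10 (0.46), Inpp5k (0.44) and Eif4ebp1 (-0.39). In females the receptor phosphatase Ptprf fell by 0.62 ± 0.14 SE on the log2 scale (edgeR adjusted p = 0.0436), and the lipid phosphatase Inppl1 (-0.26, edgeR adjusted p = 0.185) was listed by the authors but did not pass. In the same female libraries 5 of 9 epithelial and mammary markers were listed as lower, and their part in the fall of Ptprf was not tested.

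FOXO factors and genes known as FOXO targets were listed in both directions in male fat and as higher in female fat. In male inguinal fat 3 of 20 were listed: the stress gene Gadd45a rose from 163 ± 28.8 to 441 ± 95.7 normalized counts (SD, n = 4 each; log2 fold 1.40 ± 0.17 SE, edgeR adjusted p = 0.000921), while the mitophagy gene Bnip3 fell by 0.65 ± 0.08 SE (edgeR adjusted p = 0.0015) and the triglyceride lipase Pnpla2 fell by 0.60 ± 0.13 SE (edgeR adjusted p = 0.0220). In females 4 were listed, Foxo1 among them, and Bcl6, Cited2 and Gadd45a rose with log2 folds of 1.16, 0.78 and 0.94 (edgeR adjusted p = 0.000817, 0.00194 and 0.0123). Bcl6 is on this list as a known FOXO target but is the floxed gene itself, and its whole-gene count does not separate the deleted part, so it cannot be read as a change of intact Bcl6 RNA. In perigonadal fat 6 were listed, 3 in each direction, and the authors' deposited table gives 1.32 for Gadd45a, -1.53 for Pck1, the key enzyme of glyceroneogenesis, -0.78 for Bnip3 and -0.68 for Pnpla2.

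Of 29 genes of glucose uptake and glycolysis, 3 were listed in male inguinal, 2 in female inguinal and 4 in perigonadal fat. Beside Pfkfb3, male inguinal fat listed the muscle-type phosphofructokinase Pfkm, which rose by 0.30 ± 0.07 SE on the log2 scale (edgeR adjusted p = 0.0449), and the hexokinase Hk1, which did not pass (0.23 ± 0.06 SE, edgeR adjusted p = 0.0622). In females Ldhb (0.53, edgeR adjusted p = 0.0977) and Pgam1 (0.39, edgeR adjusted p = 0.131) did not pass. For perigonadal fat the authors' deposited table has Pfkm at 0.52, the glucose transporter Slc2a1 at 0.27, Pfkfb1 at 0.26 and the gluconeogenic phosphatase Fbp2 at -0.85. The Fbp2 value rests on a low mean of 24.6 normalized counts (± 0.29 SE, adjusted p = 0.0364, DESeq2 by the authors). Slc2a4, which encodes the insulin-responsive transporter GLUT4, was listed in none of the 3 tables.

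Among 16 glycogen and lipid effectors, Srebf1, the lipogenic transcription factor that insulin induces, was listed in all 3 tables as lower in AKO. It fell in male inguinal fat from 5908 ± 539 to 3238 ± 487 normalized counts (SD, n = 4 each; log2 fold -0.86 ± 0.11 SE, edgeR adjusted p = 0.00142). In female fat the log2 fold was -0.61 ± 0.16 SE and did not pass (edgeR adjusted p = 0.0852). In perigonadal fat the authors' deposited table gives -0.77 (adjusted p = 1.85e-06, DESeq2 by the authors), and also lists the glycogen phosphorylases Pygl (-0.78) and Pygb (-0.37) as lower and the carbohydrate-response factor Mlxipl (0.33) as higher.

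**Figure D5:**
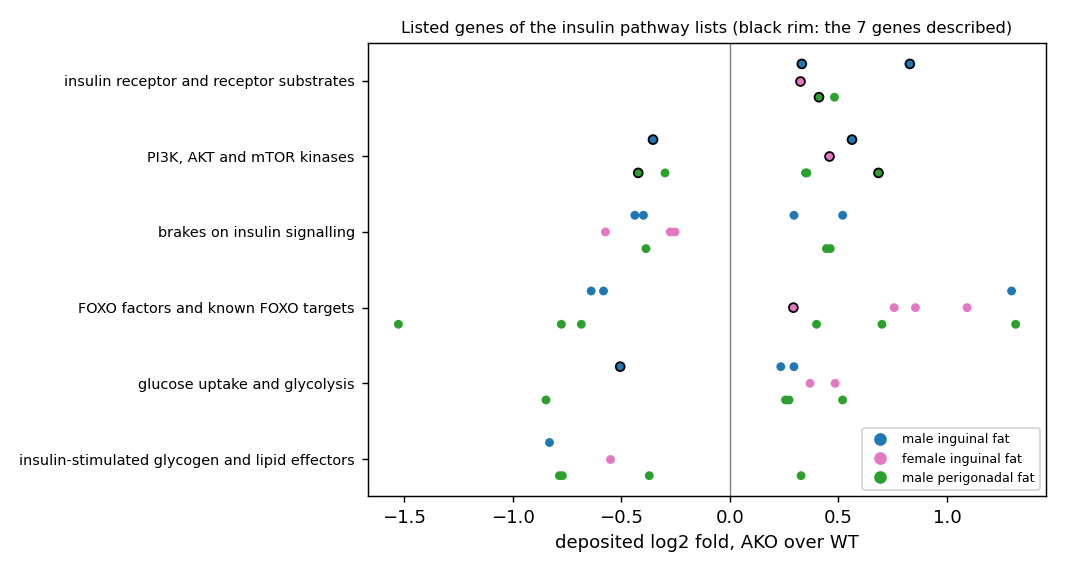
Log2 fold of AKO over WT in the authors' deposited tables for every listed gene of the 6 pathway lists, grouped by list. Colours mark the 3 adipose comparisons and dark rims mark the 7 members. Each list with several genes holds points on both sides of 0 except the receptors and docking proteins, where the listed ones all lie above 0.

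The profile of each member across libraries was set beside those of the other listed genes with known symbols, by Pearson's r of log2(normalized count + 1), as a description without a test. All these genes were listed for a difference between WT and AKO on the same libraries, which by itself gives high r. In the 8 male libraries, Irs2 was most like Gprc5b (0.98), Pcdhgc3 (0.96) and Acox3 (0.94) among 1031 genes, Irs3 was most like Tmem159, Yeats2 and Cdkn2c (0.97 each), and Akt2 was most like Ifrd2 (0.98), BC003965 (0.97) and Asb8 (0.96). Pfkfb3 was most like Por (0.98), the reductase of microsomal oxidases, then Whamm (0.96) and Rprml (0.95). In the 8 female libraries, Insr was most like Zfp949, Ctnnal1 and Klb (0.99 each), the last a co-receptor for endocrine fibroblast growth factors, and Foxo1 was most like Lrrc4c (0.94), Pde1a (0.93) and Arsg (0.92), among 754 genes. Akt1, over 16 libraries after each sex's mean was removed, was most like the ATP synthase subunit gene Atp5g1 (0.97), Tsga14 (0.96) and Rnf166 (0.96) among 282 genes.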

How the data were processed

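STAR, mm10 and DESeq2 are named in the submitters' processing notes, without versions or roles. The counter, its strand setting and the annotation: not given in the sources used here. The authors deposited raw read counts, as whole numbers, for the genes they listed and no others, so whole-library depth is unknown. Counts in listed genes ran from 592820 to 2603509 per library in males and from 864592 to 4072659 in females. Per the file headers, the authors' deposited comparison tables give for each gene the mean normalized count (a signal), the log2 fold with its error, and the raw and adjusted p-value. The deposited log2 fold is AKO over WT where counts allow a check. For perigonadal fat that direction is assumed, since its column is named alike.

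The authors' size factors were recovered by least squares from counts and deposited means (largest misfit 4.79e-08%) and used as library sizes. WT and AKO were compared within each sex with edgeR 4.0.16 (quasi-likelihood, legacy glmQLFit, R 4.3.3), without covariate or filter, with Benjamini-Hochberg adjustment over the 12554 (male) and 13546 (female) genes that the authors tested, as recovered from their p-values, at 0.05. Sex by genotype was fitted over 290 shared genes and 16 libraries. Standard errors were computed as log2 fold over the square root of F. The test script was checked on simulated counts. The labels give each library its own animal number within a tissue. All 24 pairs of replicates differed beyond counting noise (chi-square per degree of freedom 7.26 to 79.8).

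Named are the 7 members, up to 4 other listed genes per pathway list and table by lowest adjusted p of the authors, and the 3 genes with the highest r per member. Slc2a4 and Bcl6 in the depth paragraph, and the marker genes, complete statements outside that rule. A gene that the rule names is not reported here. The members and lists were chosen with earlier results of these data known. The length alternative for the Akt1 to Akt2 ratio was chosen after seeing the data. DESeq2 1.42.0, other scalings, a filter of 10 counts in 4 libraries, a replicate block and leaving out each library were alternatives. Counting intervals are not given, since replicate spread is shown. Coordinates are from GENCODE M21 and promoters from RefSeq.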

Additional observations from a re-analysis of the deposited data

Results flagged for a closer look

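In female inguinal fat, Akt1 in AKO replicate 3 stood at 5994 normalized counts, far above the other 3 AKO libraries, with a gap of 0.847 of the group's range to the nearest, above the 95% limit of Dixon's test for 4 samples. It was the only such library among 18 groups examined, and chance flags about 1 group in 20. Without it the log2 fold was 0.41 and the edgeR adjusted p was 0.0178.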

How the results depend on the processing

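Of 133 values of members and of the sex difference under an alternative, 93 kept their direction and side of the threshold, 32 fell short of it, 8 newly passed it and 0 changed direction. Akt1 in males kept its call under all 14 alternatives. In males 4 members were called, and 1 to 3 when any 1 library was left out. The 651 male genes called became 995 with DESeq2, 1072 of the 1074 listed when adjusted over the table alone, and 350 to 560 without 1 library. In females 2 members were called, 1 with TMM, 0 with the table total and 0 to 2 without 1 library. TMM and the table total were both computed from the listed genes alone. The 326 female genes called became 739 with DESeq2, 790 (all those listed) when adjusted over the table alone, and 156 to 421 without 1 library. The tables hold only genes the authors had called, so the table-alone adjustment passes nearly every gene. A member that passes it gains no support from that. Pfkfb3 passed with DESeq2 (adjusted p = 0.00514), TMM (0.0366), the table total (0.0337) and the table-alone adjustment (0.00474), with 0.00474 to 0.167 over all 14 alternatives, and Foxo1 passed with the last alone (0.00885, of a range up to 1). Whether the labels' replicate numbers pair the samples could not be settled from 4 libraries per group and listed genes alone. Deviations of same-numbered WT and AKO libraries correlated at 0.07 to 0.26 in males and at -0.30 to 0.18 in females. Of the WT libraries, 2 of 4 in males and 1 of 4 in females correlated best with their own number. With the replicate block, 0 female members and 130 female genes were called, 4 male members and 772 male genes were called, Irs2 was lost (adjusted p = 0.0583, with 0.00188 to 0.0899 over all alternatives) and Pfkfb3 passed (0.0271). The cause of these changes was not tested. Leaving out a library also left fewer samples, and the table-alone adjustment was over fewer genes. Irs2 had the fewest reads of the members, 47 in the shallowest library.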
